A study of Glycine max with 16 samples.

Results

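The regions described here are chromatin sites with a listed peak of LEAFY COTYLEDON1 (LEC1) in soybean embryos at the cotyledon stage. In the lists made with the same antibody, they had no peak at either of the later stages sampled. They were selected on the peak lists themselves. One peak list stands for the cotyledon stage (COT), one for early maturation (EM) and one for mid-maturation (MM), and peaks of these lists that overlapped by at least 1 bp were joined into regions, and a region was kept when it held a COT peak and no EM or MM peak. Of 78759 merged regions, 8134 (10.3%) met this rule. Each of them held a single COT peak, and together they made up 15.7% of the 51845 peaks of the COT list.

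LEC1 is the B subunit of a nuclear factor Y (NF-Y) complex that acts during embryo development, and in Arabidopsis it is known for the leafy cotyledons that its mutants form. NF-Y complexes bind the CCAAT box of promoters, and LEC1 also acts with other seed transcription factors. In the cotyledon-stage embryo the organs are still being formed, whereas during maturation the cotyledons fill with storage protein and oil.

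Binding was mapped by ChIP-seq (sequencing of the DNA recovered by chromatin immunoprecipitation) in dissected embryos of the soybean (Glycine max) cultivar Williams 82, and the labels name no transgene or mutant. COT embryos came from seeds 2.5 to 3.5 mm long, EM embryos from seeds 6 to 7 mm long, and MM embryos from seeds weighing 200 to 250 mg. Antibody raised against recombinant GmLEC1 was used at all 3 stages, and antibody raised against a GmLEC1 peptide at EM as well. Each stage and antibody had 2 biological replicates of ChIP and 2 of input chromatin, 16 libraries in all, and is represented by 1 deposited peak list. The list made with the peptide antibody (LEC1pep-EM) took no part in choosing the regions. There is no spread between replicates to set a difference against, so all values below describe these 4 lists, and no test between stages was made. The sequencing depth behind the lists is unknown, so absence from a list means only that no peak is listed, not that LEC1 was absent. The score of a peak is the authors' own value, of unknown scale, and is used only within its list. Positions are in the genome build Gmax275. The genome and gene annotation of that build were not used here, so no sequence is printed and no region is assigned to a gene.

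COT-only regions were narrow and stood low in the COT list. These values come from the list that chose the regions and are given as a description. Their COT peaks had a median width of 150 bp, with a range of 100 to 850 bp. The COT peaks of regions found at all 3 stages had a median width of 350 bp. COT peaks with an EM but no MM peak, and those with an MM but no EM peak, both had a median of 200 bp, between these extremes. Regions found at EM alone or at MM alone were narrow as well, with median region widths of 150 and 200 bp, so a small width was shared by the single-stage sets. Of the COT-only peaks, 2401 were 100 bp wide, the narrowest width in the list, and 2439 were 150 bp wide. These 2 widths held 59.5% of the COT-only peaks, against 22.8% of all COT peaks. Of the 5280 COT peaks of 100 bp, 45.5% were COT-only, and of the 3405 peaks of 450 bp, 1.73%. The regions covered 9.0% of the sequence under COT peaks, a smaller part than their 15.7% of the peaks.

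The median score of the COT-only peaks was 1.98, against 2.12 for peaks shared with EM alone, 2.10 for peaks shared with MM alone and 2.63 for peaks shared by all 3 stages, in the authors' units of the COT list. The middle 50% of COT-only scores ran from 1.88 to 2.16. COT-only peaks made up 43.7% of the lowest-scoring 10% of the list, 14.2% of the fifth 10% from the bottom and 0.463% of the ninth. Only 716 of them (8.80%) were in the higher-scoring 50% of the list. A single one was among the highest-scoring 10%. Width and score rose together within the set, with a Spearman's rho of 0.771 across its peaks, which are not independent replicates.

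**Figure D1:**
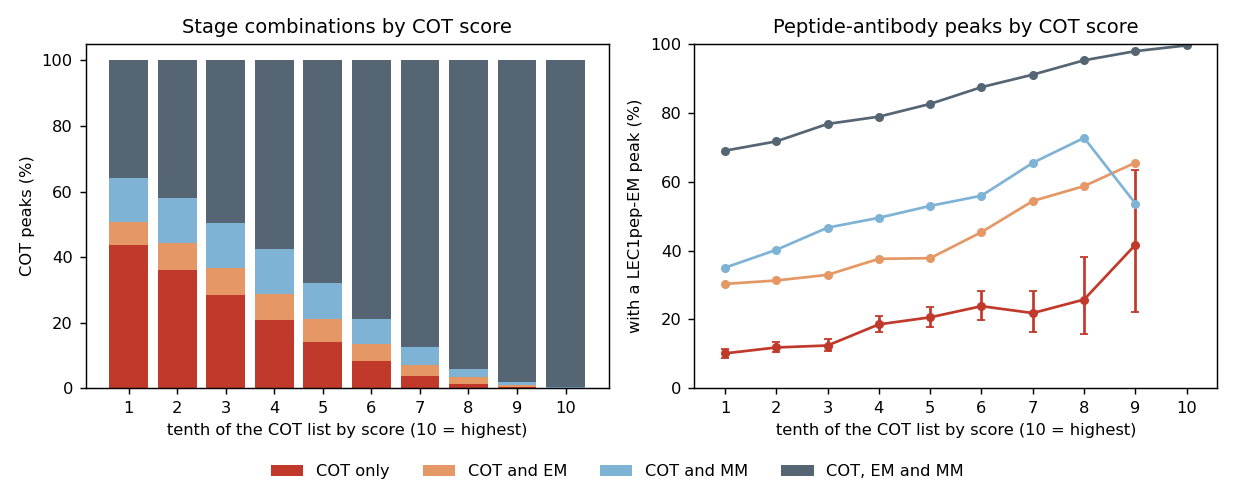
Left, COT peaks in each 10% of the COT list by score, divided by the stages at which a peak was found; right, share of those COT peaks overlapped by a LEC1pep-EM peak, for classes of 20 or more peaks, with exact 95% binomial intervals for COT-only peaks. COT-only peaks fell from 43.7% of the lowest-scoring 10% to 0.463% of the ninth, and in each class up to the eighth their peptide share was below those of the other combinations.

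The peptide antibody gave a view of the same regions at EM, from a list that the rule had not used. The rule still bears on it, because it removed all regions with an EM peak. Only 8607 of the 49566 peptide peaks had no EM peak. A low share beside sets that hold EM peaks thus follows in part from the rule. Regions of COT and MM, and those of MM alone, also lack an EM peak. Of the 8134 COT-only regions, 1156 (14.2%, exact 95% binomial interval 13.5 to 15.0) were overlapped by a LEC1pep-EM peak, against 58.7% of all merged regions and 71.4% of all regions with a COT peak. The intervals cover counting error only. The share was 38.9% for regions of COT and EM, 49.6% for regions of COT and MM and 89.2% for regions of all 3 stages. For regions found at EM alone it was 19.5% (18.3 to 20.7), and at MM alone 19.6% (18.9 to 20.3). Thus, in the lists as deposited, the COT-only share lay below that of the other single-stage sets by about 5 of every 100 regions. It was far below that of the sets found at 2 or 3 stages. The single-stage sets were not matched for width or list length. With lists of equal length the COT-only share was 22.4%, and those of EM-only and MM-only regions were not recomputed. The EM-only regions come from the stage of the peptide list itself, and stage and experiment cannot be told apart in these values.

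Low score and narrow width mostly went with a low peptide share, so the shares were also compared among COT peaks of like score or width. In the lowest-scoring 10% of the COT list, 10.1% of COT-only peaks had a peptide peak. The corresponding shares were 30.3% of peaks shared with EM alone, 35.0% of those shared with MM alone and 69.0% of those of all 3 stages. In the sixth 10% the share of COT-only peaks was 23.8% (102 of 428), and the others had 45.4, 55.9 and 87.5%. COT-only peaks thus stayed lowest at both levels of score. Peaks shared with EM alone or with all 3 stages come from regions that hold an EM peak. Their higher shares follow in part from the rule at any score or width. Only the peaks shared with MM alone come, like the COT-only peaks, from regions without an EM peak. Weighting each combination to the scores of the COT-only peaks, by 10% classes, gave 34.4% for COT and EM, 44.1% for COT and MM and 75.4% for all 3 stages, against 14.2% for COT alone.

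Width gave the same order up to 450 bp. Among COT peaks of 100 to 150 bp, 489 of 4840 COT-only peaks (10.1%) had a peptide peak. The shares were 28.1% of peaks shared with EM alone, 37.8% of those shared with MM alone and 69.7% of those of all 3 stages. Among peaks of 300 to 450 bp, it was 194 of 736 COT-only peaks (26.4%), and the others had 51.5, 63.4 and 93.3%, in the same order. Of the 64 COT-only peaks of 500 bp or more, 16 (25%) had a peptide peak, against 98.3% of the 6900 other COT peaks that wide. Of those 6900, 6738 were of all 3 stages. The share was 58 of 86 (67.4%) for peaks that wide shared with MM alone, and 57 of 76 (75%) for those shared with EM alone. The wide COT-only peaks also scored lower than the 6900 others, with a median of 2.49 against 3.37.

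**Figure D2:**
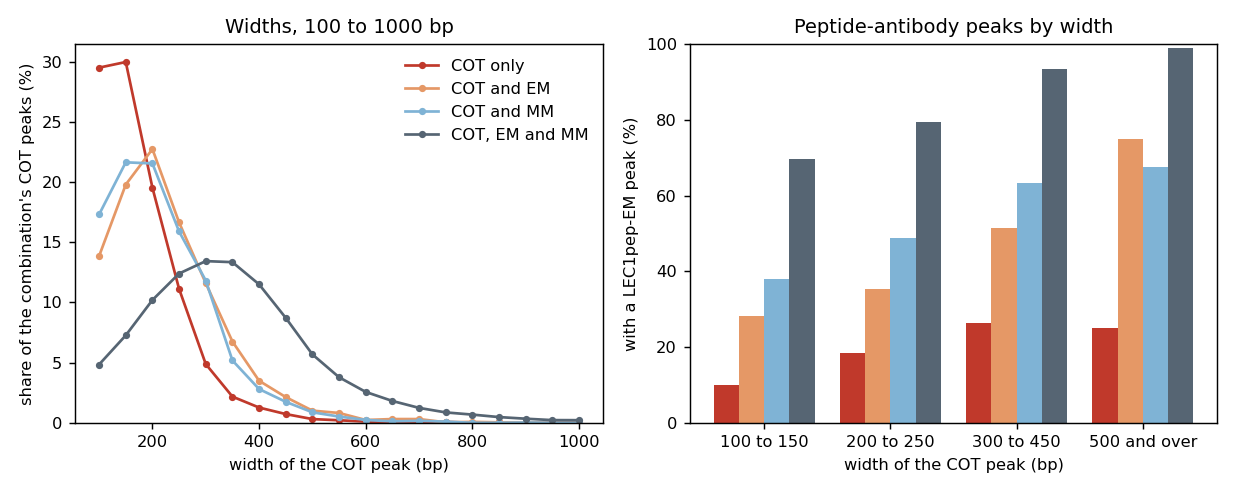
Left, distribution of the widths of COT peaks from 100 to 1000 bp, as the share of each stage combination; right, share of COT peaks overlapped by a LEC1pep-EM peak in 4 classes of width. COT-only peaks were mostly 100 or 150 bp wide, and their peptide share ran from 10.1% to 26.4% over the classes, below the other 3 combinations in each.

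Where a peptide peak was present on a COT-only region, it stood low in its own list. Present means overlapping the COT peak, so short distances between midpoints follow in part from the definition and the peak widths. The midpoints of the 1156 COT peaks and the peptide peaks over them were a median of 50 bp apart, and 773 pairs (66.9%) were within 50 bp. For regions of all 3 stages the median distance was 25 bp. The lists are in steps of 50 bp, so distances of this size are near their resolution. The peptide peaks over COT-only regions were narrow, at 200 bp in the median where the whole peptide list had 300 bp, and 1127 (97.5%) lay in its lower-scoring 50%. Over regions of all 3 stages, 30.4% of the peptide peaks did.

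COT-only regions with a peptide peak were somewhat stronger in the COT list than those without. Their median COT score was 2.06 (middle 50% from 1.91 to 2.26), against 1.98 (1.87 to 2.14) for the 6978 without, and their median width was 200 against 150 bp. The ranges of both groups overlapped over nearly their whole length, from 1.72 to 3.42 with a peptide peak and from 1.72 to 3.61 without.

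Seen from the peptide list, 1157 of its 49566 peaks (2.33%) touched a COT-only region. Of the 8607 peptide peaks with no EM peak of the anti-recombinant antibody, 1098 (12.8%) did so. For these sites the peptide antibody listed a peak at EM where the anti-recombinant antibody listed one at COT and none at EM. A further 2701 of the 8607 touched no region of any stage.

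The distance from a COT-only region to a peak of a later stage varied widely. The gap to the nearest EM or MM peak had a median of 1600 bp, and the middle 50% of regions had gaps of 600 to 4350 bp. A later peak was within 1 kb of 3069 regions (37.7%), and 752 regions (9.25%) had none within 10 kb. These gaps were not set beside those of other sets, so they describe the COT-only regions alone. One region was on a scaffold with no EM or MM peak. The nearest later peak was an MM peak for 3856 regions and an EM peak for 2485, and for 1792 both were equally near. The MM list is the longer of the pair.

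The rule drew its line between touching and overlapping. Just inside it were 387 COT-only regions whose nearest EM or MM peak was at most 50 bp away, 219 of them touching it without a gap. Their median width was 150 bp and their median score 1.93. Just outside were 677 COT peaks that shared only 50 bp with an EM or MM peak, with a median width of 150 bp and a median score of 1.91. Both sides of the line were thus alike in width and score. A peptide peak was present for 94 of the former (24.3%) and for 201 of the latter (29.7%).

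At the edge, most peptide peaks also reached a neighbouring region. Of the 94, the peptide peak of 63 also touched a region of another kind, and only 31 (8.01%) had a peptide peak that touched COT-only regions alone. Beyond 50 bp the share with any peptide peak was level, at 14.3% for gaps up to 500 bp, 14.0% for gaps of 1 to 5 kb and 12.8% for gaps over 20 kb. Over the whole set, 1074 regions (13.2%) had a peptide peak that touched no other kind of region.

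**Figure D3:**
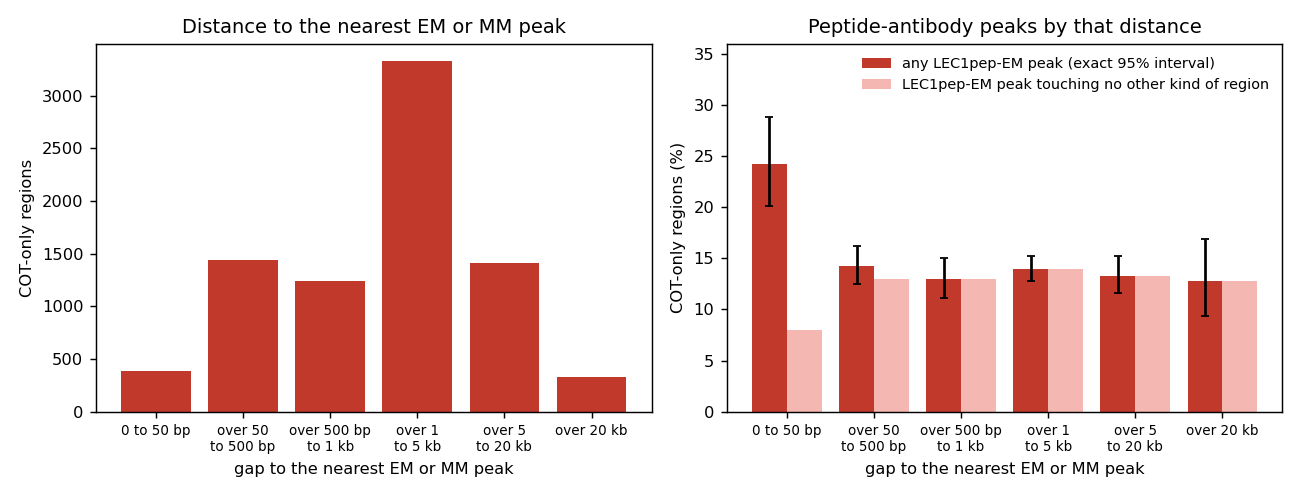
Left, number of COT-only regions by the gap to the nearest EM or MM peak, in 6 classes of unequal size; right, share of them with any LEC1pep-EM peak (exact 95% binomial interval) and with one that touched COT-only regions alone. The share with any peptide peak was 24.3% at gaps up to 50 bp and 12.8 to 14.3% in the other classes.

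COT-only regions were spread over the genome much as other LEC1 regions were. They were found on all 20 chromosomes, which held 8098 of them, and 36 lay on 11 unplaced scaffolds. Of the chromosomal ones, 22.1% (21.2 to 23.1) lay in the central part of the chromosome, from 25 to 75% of its length, against 21.8% of all chromosomal regions. The outer 20% at either end held 68.3%, the same as for all regions (68.3%). By chromosome, COT-only regions were 13.8% (12.5 to 15.2) of the regions with a COT peak on chromosome 9, the lowest, and 17.4% (15.92 to 18.99) on chromosome 5, the highest, against 16.0% over the genome. The interval of chromosome 9 lay below this value, and those of the other 19 chromosomes held it. Chromosome 9 was named as the lowest of 20, and among 20 such intervals a single miss can arise from counting error alone.

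In number, chromosome 13 held the most with 614, or 13.4 per Mb, and chromosome 16 the fewest with 257. Chromosome 1 had the lowest density, 6.67 per Mb. These numbers followed the other regions, with a Spearman's rho of 0.835 over the 20 chromosomes between the number of COT-only and of all other regions. The share with a peptide peak was lowest on chromosome 9, at 11.9% (8.64 to 15.9), and highest on chromosome 20, at 18.2% (14.3 to 22.7), and the 2 intervals overlapped.

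**Figure D4:**
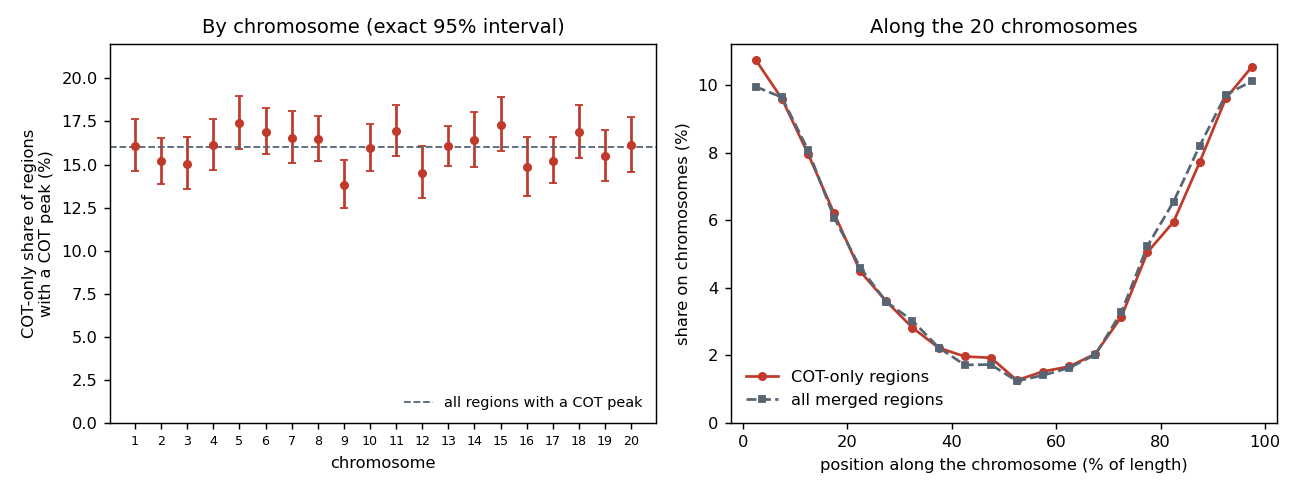
Left, COT-only regions as a share of the regions with a COT peak on each chromosome, with exact 95% binomial intervals and the value over the genome (dashed line); right, share of COT-only regions and of all merged regions in 20 equal parts of the chromosome length, summed over 20 chromosomes. The chromosomes ran from 13.8% to 17.4%, and the 2 curves on the right lay close together, with most regions near the chromosome ends.

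Spacing from other regions was close to that of LEC1 regions in general. Another LEC1 region lay within 1 kb of 3406 COT-only regions (41.9%, 40.8 to 43.0), against 42.1% of all merged regions. For 45.9% of COT-only regions the nearest other region was one found at all 3 stages, a share close to the 45.6% that such regions make up of all regions, and for 11.7% it was another COT-only region, against 10.3% of all regions. Gaps of at most 50 bp were more frequent, for 5.21% of COT-only regions against 2.85% of all, and EM-only regions had still more, 8.33%. A region that overlapped its neighbour would have been merged with it, so the rule itself bears on these close gaps.

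The densest 1 Mb window of COT-only regions was at 4000001 to 5000000 of chromosome 11, with 39 of its 172 regions that held a COT peak. The next was at 5000001 to 6000000 of chromosome 15, with 36 of 155. Among windows of 100 kb, 9 COT-only regions lay at 1200001 to 1300000 of chromosome 10, at 2200001 to 2300000 of chromosome 11 and at 43900001 to 44000000 of chromosome 13. These had 25, 22 and 22 regions with a COT peak, in that order, against a share of COT-only regions of 16.0% over the genome. The windows were chosen for their number of COT-only regions, so a high share there follows from the choice.

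The highest-scoring COT-only region lay on chromosome 1 at 53107501 to 53107950. Its peak was 450 bp wide, had a score of 3.61 and took place 4137 of 51845 in the COT list. The nearest EM peak was 14000 bp away, the nearest MM peak 10050 bp and the nearest peptide peak 11000 bp. It was therefore far from any site of the later stages, and it opened a run of 4 COT-only regions that no other kind of region interrupted, from 53107501 to 53130500. The other peaks of the run lay at 53112751 to 53113050 (score 2.24), 53114601 to 53114950 (score 2.78) and 53130201 to 53130500 (score 2.34), and none of the 4 had a peptide peak. A peptide peak between the last of them and the one before it, 15.25 to 15.45 kb from the start of the run, touched no COT-only region.

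The second in score lay on chromosome 8 at 4217751 to 4218450, with a width of 700 bp, a score of 3.42 and place 5951. It was 500 bp from an MM peak and 550 bp from an EM peak, and had no peptide peak. The third, on chromosome 9 at 48990501 to 48990900, took place 5974 and was overlapped by a peptide peak at 48990501 to 48990850, in place 36432 of the peptide list. The fourth, on chromosome 10 at 1436001 to 1436400, took place 6042, and its peptide peak at 1436101 to 1436350 was in place 43582. Both peptide peaks began within 100 bp of the COT peak's start and stood low in their list.

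Chromosome 9 held the fifth and sixth as well, wide peaks without a peptide peak. The fifth, at 43014401 to 43015150, was 750 bp wide with a score of 3.37, and its nearest EM and MM peaks were 6800 and 6750 bp away. The sixth, at 42516151 to 42517000, was 850 bp wide with a score of 3.35, and was 2300 bp from both an EM and an MM peak. It was also the first of the 3 widest COT-only regions, all of 850 bp.

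The seventh, eighth and ninth in score all had a peptide peak. The seventh, on chromosome 6 at 421251 to 421700, took place 7035, and its peptide peak at 421451 to 421650 was in place 44266. The eighth, on chromosome 2 at 15220551 to 15220850, took place 7071, and the peptide peak at 15220601 to 15220800 was in place 33660. The ninth, on chromosome 20 at 38333901 to 38334300, took place 7475, with a peptide peak at 38334101 to 38334300 in place 42435. These 3 peptide peaks were each 200 bp wide and lay within the COT peak. The tenth, on chromosome 15 at 1939451 to 1940000, took place 7704, had no peptide peak, and was 150 bp from an MM peak. Thus 5 of the 10 highest-scoring COT-only regions had a peptide peak, and by their order these are the 5 highest-scoring that had one. All but the first of the 10 were in the ninth 10% of the COT list by score. There, 10 of 24 COT-only peaks (41.7%, 22.1 to 63.4) had a peptide peak. The share was 22 of 41 (53.7%) for peaks shared with MM alone, inside that interval. For peaks shared with EM alone it was 19 of 29 (65.5%), and for those of all 3 stages 97.9%.

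The other 2 of the 3 widest regions scored lower. One, on chromosome 20 at 46572551 to 46573400, had a score of 2.60 and a peptide peak of 100 bp at 46572951 to 46573050. It was 150 bp from an MM peak 750 bp wide. The other, on chromosome 5 at 27839951 to 27840800, had a score of 2.40 and lay 150 bp from the nearest peptide peak and 900 bp from the nearest MM peak. The 176 other COT peaks of 850 bp had a median score of 3.45 and a range of 2.11 to 4.92, and 175 of them had a peptide peak. The scores of the 3 COT-only peaks were within that range and below its median.

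Most COT-only regions stood singly among regions of other kinds. There were 6432 such single regions, and 1702 (20.9%) stood next to another COT-only region in 802 runs. COT-only regions made up 10.3% of all merged regions. At that share most would stand singly in a random order as well, and a departure from such an order was not tested. Of the runs, 718 had 2 regions, 72 had 3, 10 had 4 and 2 had 5. The median gap from one COT-only region to the next was 20400 bp, and 502 (6.17%) had another within 1 kb.

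The first run of 5 lay on chromosome 2 at 4449451 to 4474800. It began with a peak at 4449451 to 4449850, 400 bp wide, with a score of 3.16 and place 9174. The other 4 peaks were 100 to 250 bp wide, with scores of 1.82 to 2.23, and none of the 5 had a peptide peak. The last of them, at 4474651 to 4474800, touched an MM peak of 100 bp at 4474801 to 4474900, and so was a member only by the absence of an overlap. The second run of 5 lay on chromosome 13 at 43927351 to 43950500, inside one of the 100 kb windows with 9. Its peaks were 150 to 450 bp wide with scores of 1.98 to 2.70, and the one with the highest score, at 43929251 to 43929600, had a peptide peak in place 42449.

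**Figure D5:**
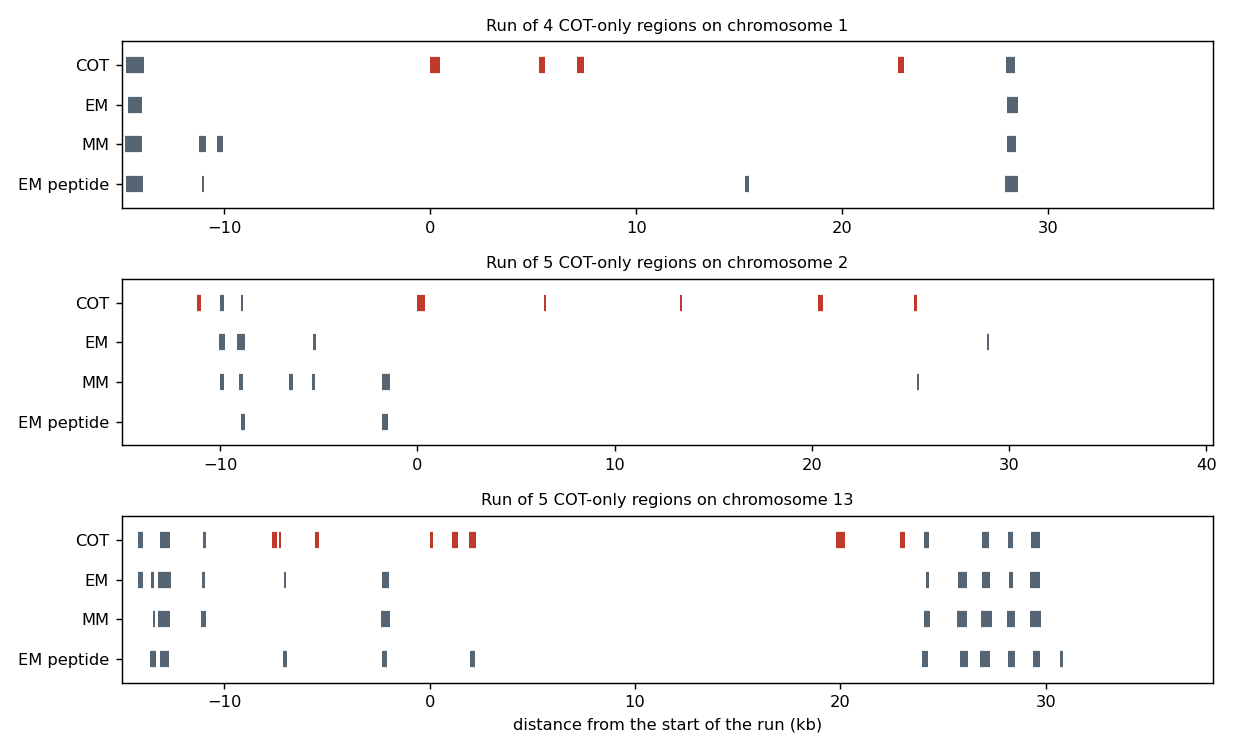
Peaks of the 4 lists around the run of 4 COT-only regions that begins with the highest-scoring one (top) and around both runs of 5 (middle and bottom), by distance from the start of the run in kb; red bars are COT-only regions and grey bars all other peaks. By definition a run holds no EM or MM peak; of the 14 COT-only regions in the 3 runs, 1 on chromosome 13 had a peptide peak over it.

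At the other extremes, 10 pairs of COT-only regions were only 50 bp apart. The first 3 in genome order were on chromosome 1 (46273501 to 46273700 and 46273751 to 46273900), chromosome 3 (40059851 to 40060100 and 40060151 to 40060300) and chromosome 5 (37407951 to 37408150 and 37408201 to 37408400). Scores in these 3 pairs were 1.83 to 1.99. Both regions of the chromosome 3 pair were overlapped by the same peptide peak of 300 bp, and those of the other pairs by none. The region farthest from any other was on chromosome 3 at 15719301 to 15719450, 487250 bp from the next region, with a score of 1.93 and no peptide peak.

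Some peptide peaks on COT-only regions also covered a neighbour. The highest-placed peptide peak on any COT-only region, in place 167 of its list, was 1150 bp wide and lay on chromosome 8 at 40593501 to 40594650. The COT-only peak under it, at 40594501 to 40594600, was 100 bp wide, in place 51038 of the COT list, and 250 bp from a region of all 3 stages that the same peptide peak covered. This position was chosen after its values were seen. In all, 82 COT-only regions had a peptide peak only in this way, one that also touched a region of another kind.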

How the data were processed

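ChIP-seq peak lists of soybean embryos were used as the authors deposited them, 1 list per stage and antibody; reads were not processed. The submitters' processing notes name Bowtie 0.12.7 and SAMtools 0.1.19. Peak calling (tool, threshold and use of the 2 replicates): not given in the sources used here. Each deposited row holds a chromosome, start, end, name and score; the score's meaning and scale are not stated. Peak names also carry a number whose order follows the score closely (Spearman's rho −0.950 to −0.9996 over the 4 lists), and it was not used. Taking each deposited end as included in the peak makes every start and width a multiple of 50 bp, so 1 was added to give half-open ends. Positions are printed 1-based.

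Merging, overlap (at least 1 bp) and gaps were computed in Python 3.11.15 with pandas 2.3.3 and scipy 1.17.1, and were tested on simulated intervals against a direct search. The last peak end stood for the length of a chromosome. Shares carry exact (Clopper-Pearson) 95% intervals, for counting error only; regions are not replicates and depth is unknown. Named regions are the 10 highest-scoring, the 5 highest-scoring with a peptide peak, the 3 widest, the 3 closest pairs, the longest runs and the farthest region. Members, rules and alternatives were chosen with earlier results of these data known. The only gene table given here belongs to the assembly Glycine_max_v4.0 and was left aside, so the planned sequences, motif counts and nearest genes were not run.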

Additional observations from a re-analysis of the deposited data

How the results depend on the processing

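The results were recomputed under 7 alternatives, for the number of COT-only regions, their share with a peptide peak, the median width of their COT peaks, the share within 1 kb of another region and the share in chromosome centres. Of the 35 values, 17 stayed within 1.5 times the reported count (counts), inside the exact 95% interval (shares) or inside the interval of the median (width). Leaving out the unplaced scaffolds moved none of the 5 results out of these limits. Reading the deposited end as a half-open end gave a median width of 149 bp, by construction, and moved no other result. Where only a reciprocal overlap of 50% counted as shared, 13433 peaks were COT-only, 35.6% had a peptide peak and 64.8% were within 1 kb. The peaks that this setting added all overlapped an EM or MM peak, so each counted as within 1 kb by construction. Leaving out regions with an EM or MM peak within 500 bp lowered the share within 1 kb to 25%, by construction. With lists of equal length (49566 peaks) 22.4% had a peptide peak, the median width was 200 bp and 37.2% were within 1 kb. In the higher-scoring 50% of the COT list, 716 regions were COT-only, with 24.0% peptide peaks, a median width of 300 bp, 37.8% within 1 kb and 20.8% in centres. With the higher-scoring 50% of each list there were 4464, with 64.8% peptide peaks, a median width of 300 bp, 24.6% within 1 kb and 20.3% in centres. Of those 4464, 3748 had an EM or MM peak in the lower-scoring 50% of its list. Membership and the peptide share thus depend on the thresholds of the EM and MM lists. No replicate could be left out, and no paired analysis was possible because each list stands for both replicates.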
